A study of Rattus norvegicus with 12 samples.

Results

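Chemokines are small secreted proteins that draw leukocytes along a gradient, and the genes described here are those of the chemokine ligands and of the receptors that read them. They were taken by symbol from the deposited tables (Ccl, Cxcl, Ccr, Cxcr or Ackr followed by a digit, with Xcl1, Xcr1, Cx3cl1 and Cx3cr1, and without Cxcl14). The rule found 54 members, 33 ligands and 21 receptors, among 19687 genes listed in at least 1 of 3 tables. Lung RNA was sequenced from 12 male Sprague-Dawley rats given monocrotaline (MCT, 60 mg/kg), a plant toxin that injures lung vessels and leads to pulmonary hypertension, with 3 rats in each of 4 groups and 1 library for each rat. The groups received angiotensin II (AngII, 1 mg/kg/day), which activates the angiotensin II type 1 receptor, TRV023, an agonist of that receptor biased to β-arrestin, losartan (10 mg/kg/day), which blocks it, or PBS vehicle. All rats had MCT and none went without it, so the values describe drug effects in injured lung only. The labels give an age of 9 weeks. In the study's histology and hemodynamic work the drugs were infused for 2 weeks from 1 week after the toxin, and the timing for the lungs sequenced here is not stated separately. Whole lung was used, so that fewer cells of a type and less RNA per cell cannot be told apart.

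Ligands and receptors of this family pair loosely. Most inflammatory ligands share a receptor with several others, the neutrophil-attracting CXC ligands acting on Cxcr2 and, in other species, Cxcr1, the monocyte-attracting CC ligands on Ccr2, and the interferon-inducible CXC ligands on Cxcr3 of T cells. Homeostatic ligands such as Ccl21 and Cxcl12 place lymphocytes and progenitor cells in tissue, and atypical receptors (Ackr) take up ligand without moving the cell. In lung, alveolar macrophages, epithelium and endothelium are known sources of many of these ligands. Many genes of the inflammatory ligands carry binding sites for NF-kappaB near the start of transcription.

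Many of the genes lay near others of the family in the deposited tables. On chromosome 14 there were 8 CXC ligands between 15193480 and 18771910, and on chromosome 10 there were 10 CC ligands between 69047091 and 70518348, with Cxcl16 apart from them at 56817244. Chromosome 8 held 13 receptors, which did not form 1 cluster, with Cxcr5 at 47455500 and Ackr4 at 112031580 apart from Ccr9 at 131979177. The genome build of those coordinates is not given in the sources used here. Promoter sequence from RefSeq on the GRCr8 build (250 bases before to 50 after each start) was matched by symbol for 41 members, 27 of them ligands. A 10-letter kappaB motif, searched on both strands, was found in 9 of these 41 promoters (22.0%) and in 8 of the 27 ligand promoters (29.6%), against 2087 of 27457 promoters of all genes (7.60%). A 10-letter motif of the interferon-stimulated response element was found in 2 of 41 (4.88%, against 3.77% of all promoters), the GAS motif TTCNNNGAA in 6 of 41 (14.6%, against 8.68%), and the AP-1 motif TGANTCA in 6 of 41 (14.6%, against 7.33%). A match is a description of the letters and no test of binding.

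The following stretches are printed because 3 neutrophil-attracting ligands on chromosome 14 had their kappaB match at nearly the same distance from the start, with 2 overlapping matches shifted by 1 base in each of them. Capitals mark the kappaB and, in Cxcl10, also the interferon-stimulated response element matches, on either strand, and each line runs 5′ to 3′ along the gene's own strand.
Cxcl1, chr14:17479352-17479431, minus strand: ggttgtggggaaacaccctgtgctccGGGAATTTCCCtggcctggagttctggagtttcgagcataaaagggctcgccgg
Cxcl2, chr14:17467286-17467365, minus strand: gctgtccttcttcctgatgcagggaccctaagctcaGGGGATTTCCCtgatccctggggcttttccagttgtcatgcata
Cxcl6, chr14:17596448-17596527, minus strand: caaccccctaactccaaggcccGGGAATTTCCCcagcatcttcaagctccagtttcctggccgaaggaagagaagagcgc
Ccl7, chr10:67513985-67514064, plus strand: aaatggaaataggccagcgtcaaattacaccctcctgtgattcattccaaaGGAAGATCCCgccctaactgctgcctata
Cxcl10, chr14:15988816-15988965, plus strand: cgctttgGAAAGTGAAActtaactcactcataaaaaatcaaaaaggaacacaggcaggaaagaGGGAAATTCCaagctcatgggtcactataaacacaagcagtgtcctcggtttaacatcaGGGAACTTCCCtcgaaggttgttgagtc
The first 4 stretches cover bases -110 to -31 and the last covers bases -250 to -101 relative to the annotated start. The first matched base stood at -84 in Cxcl1, -74 in Cxcl2, -88 in Cxcl6 and -59 in Ccl7. Cxcl9, Cxcr4 and Ackr4, which are described below, had no match to the kappaB motif or to the response element in this window.

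Counted reads per library were 16106337 to 20096877. Of the 54 members, 45 had at least 1 read in each of the 12 libraries. The filter on low counts kept 48 members in every comparison, 29 ligands and 19 receptors, and left out Ccl1, Ccl25, Ccl26, Ccl28, Ccr1l1 and Ccr3, of which no library held more than 19 reads. Ccr2, Ackr1, Cxcl5 and Ccl8 are not analysed here. Levels are given in FPKM, read counts scaled to the length of the gene and to the total of its library, which can be compared between genes.

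Ligands were far more abundant than receptors. A mean of at least 10 FPKM over the 12 libraries was reached by 17 of 33 ligands and by 3 of 21 receptors. Ccl21, the lymphatic endothelial ligand of Ccr7 that guides dendritic cells and T cells, was the most abundant member with a mean of 1211 FPKM. Its level was 1235, 1257 and 1079 FPKM in the AngII rats, 1222, 1158 and 1404 in the TRV023 rats and 924.4, 1421 and 1408 in the losartan rats, against 1147, 1019.7 and 1254 FPKM in the vehicle rats. All 4 groups overlapped. Cxcl3, a neutrophil-attracting ligand, had a mean of 809.9 FPKM, and its groups overlapped as well. The deposited model of Cxcl3 spans 19253 bases, against 1773 for Cxcl1, 2046 for Cxcl2 and 913 for Cxcl6, and in RefSeq an unnamed protein-coding gene lies next to it, so that its level may include reads of a neighbor and is uncertain. Cxcl12, the ligand of Cxcr4 and of the atypical receptor Cxcr7 (now named Ackr3), followed with 291 FPKM, then Ccl6, a rodent macrophage ligand, with 282 FPKM, Cxcl17, a mucosal ligand of airway epithelium, with 145 FPKM and Cxcl16, the ligand of Cxcr6, with 119 FPKM. In FPKM each drug overlapped with vehicle for these 4 ligands. For Cxcl12, Cxcl17 and Cxcl16 all TRV023 rats lay below all AngII rats, and for Cxcl16 all losartan rats did too. The share of all genes without overlap between drug groups was not counted. Between TRV023 and AngII the edgeR adjusted p was 0.638 for Cxcl12, 0.366 for Cxcl17 and 0.349 for Cxcl16. Among receptors Cxcr7 (63.0 FPKM) and Cxcr4 (57.1 FPKM) stood above Cxcr1 (10.8) and Cx3cr1 (9.78).

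**Figure D1:**
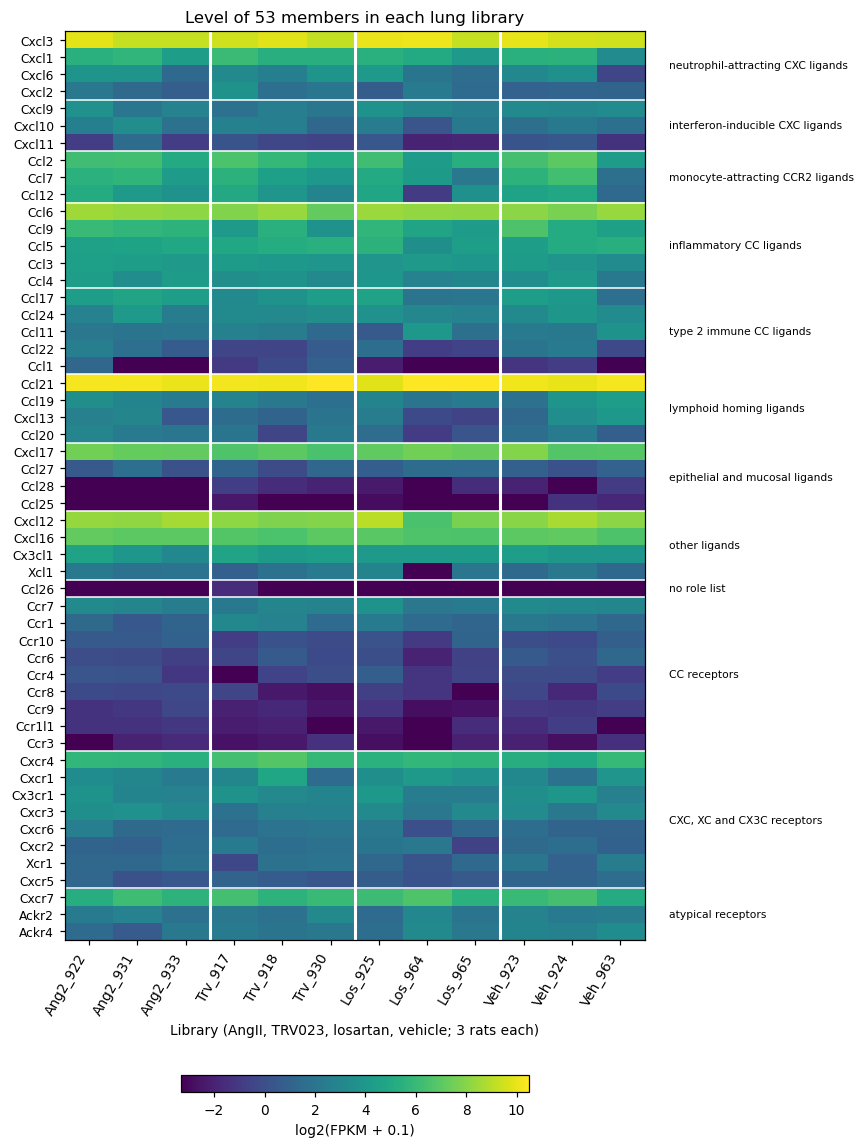
Heat map of log2(FPKM + 0.1) for 53 of the 54 members (rows, grouped by role) in the 12 libraries (columns, 3 rats each of AngII, TRV023, losartan and vehicle, separated by white lines). Ccl21 and Cxcl3 are the brightest rows in all 12 libraries, and the rows of Ccl7, Ccl12, Cxcl6 and Ccl22 are darker in Veh_963 than in the other 2 vehicle libraries.

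The spread between rats of a group was larger for these genes than for most others. The SD of log2 values within groups had a median of 0.58 over the 48 members tested (0.72 for ligands, 0.54 for receptors), against 0.29 over the 14825 genes tested with every drug. Among 12637 genes with a mean level between the 10th and 90th percentile of the members the median was also 0.29. These are most of the 14825 genes and were not matched to the members one by one, so that the part of abundance was not settled. Ccl12 (SD 1.54), Ccl7 (1.46) and Cxcl13 (1.14) had the largest values of the family. The first 2 attract monocytes and the last places B cells in follicles.

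Part of this spread went with the animals' numbers. The 3 rats numbered 96x (Los_964, Los_965 and Veh_963) had less of many inflammatory ligands than the other rats of their own groups. What that number series stands for is not stated, the AngII and TRV023 groups hold no such rat, and the pattern was singled out after the values were seen. Of the 48 members, 20 (41.7%) were lower in both losartan rats of the series than in Los_925 and lower in Veh_963 than in both other vehicle rats, and 6 (12.5%) were higher in this way, whereas over all 14825 genes the shares were 17.8% and 16.9%. Ccl17, a ligand of Ccr4 on Th2 cells, stood at 3.92, 4.19 and 3.18 FPKM in Los_964, Los_965 and Veh_963, and between 9.69 and 26.5 FPKM in the other 9 rats. These ranges did not overlap. Ccl2, the principal monocyte attractant, was at 19.2 and 40.4 FPKM in Los_964 and Los_965 and 74.6 in Los_925, and at 18.6 FPKM in Veh_963 beside 84.0 and 127 in the other vehicle rats. Ccl7 was at 18.4 and 4.45 FPKM in Los_964 and Los_965 and 34.9 in Los_925, and at 3.27 FPKM in Veh_963 beside 47.7 and 77.9 in the other vehicle rats. Ccl12 was at 0.431 and 12.1 FPKM in Los_964 and Los_965 and 28.1 in Los_925, and at 2.49 in Veh_963 beside 25.5 and 30.3. Cxcl6 and Ccl22, the macrophage-derived partner of Ccl17, had the same order. Ccl11 (eotaxin), which attracts eosinophils, had the opposite one, with 16.3 and 3.26 FPKM in Los_964 and Los_965 and 1.34 in Los_925, and 13.1 FPKM in Veh_963 beside 4.92 and 4.62. The summed level of the 11 gene models listed for the 10 mast cell markers was 475, 608 and 761 FPKM in Los_964, Los_965 and Veh_963. It was 916 FPKM or more in the other 9 rats. That of the 12 listed monocyte and macrophage markers was 492, 236 and 416 FPKM, within 408 to 600.0 in the other rats but for Los_965. No marker of either list was at 0 in all libraries, and their part in the pattern was not tested.

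**Figure D2:**
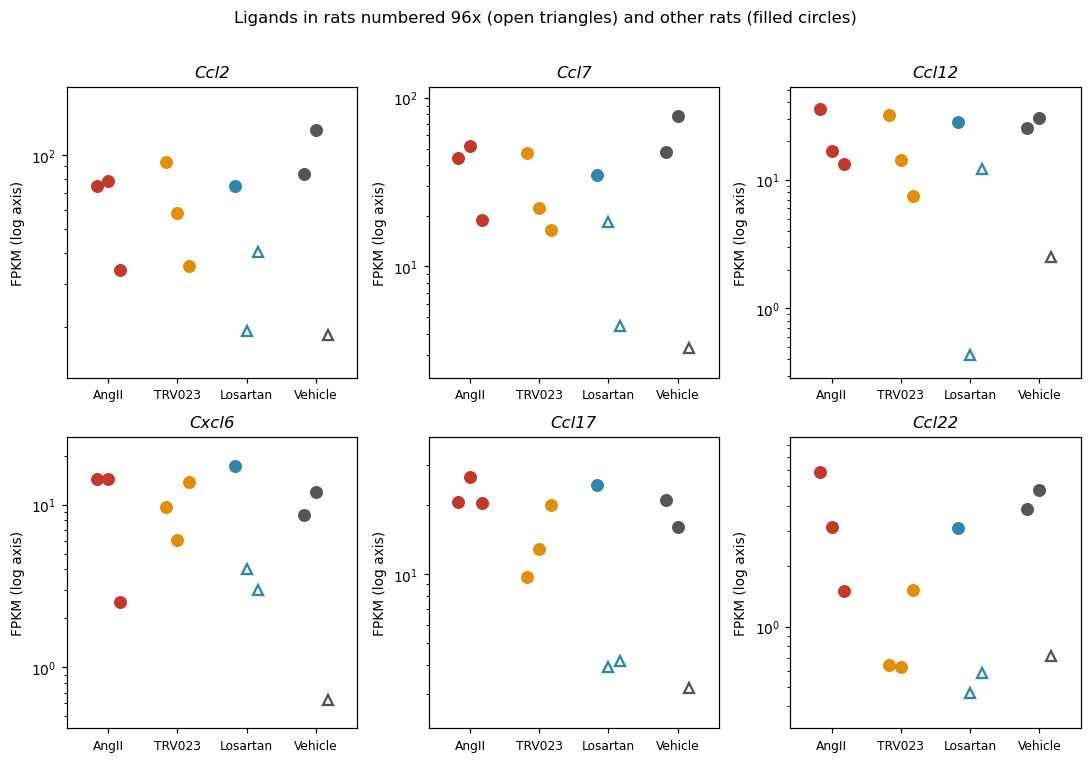
FPKM (log axis) of 6 ligands in each rat by group, with open triangles for the 3 rats numbered 96x and filled circles for the other 9. Within losartan and within vehicle the triangles lie below the circles for all 6 genes, and for Ccl17 they lie at 3.18 to 4.19 FPKM, below all 9 circles.

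No member was called in any comparison. The comparisons used edgeR, with p-values adjusted over all genes tested and a threshold of 0.05. For AngII 0 of 48 members were called (0.0133% of all genes), for TRV023 0 of 48 (0.00658%) and for losartan 0 of 48 (0% of all genes). DESeq2 called 0 members with each drug as well, against 1.42%, 0.712% and 0.0442% of all genes with AngII, TRV023 and losartan. In a fit of all 12 libraries 0 of 48 differed among the 4 groups (0.0191% of all genes), and 0 were called between TRV023 and AngII (0%), AngII and losartan (0%) or TRV023 and losartan (0%). At an unadjusted p under 0.05 there were 2 members with AngII (4.17%, against 11.9% of all genes), 7 with TRV023 (14.6%, against 5.56%) and 1 with losartan (2.08%, against 1.65%). In the fit of all libraries there were 2 among the 4 groups (4.17%, against 8.23%), 9 between TRV023 and AngII (18.8%, against 11.1%), 3 between AngII and losartan (6.25%, against 9.42%) and 3 between TRV023 and losartan (6.25%, against 4.65%). The error of these values was large, and the median SE of a member's log2 fold change was 0.44, 0.44 and 0.49 with AngII, TRV023 and losartan, against 0.23, 0.21 and 0.25 over all genes. A result short of the threshold therefore does not show that a level stayed the same.

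**Figure D3:**
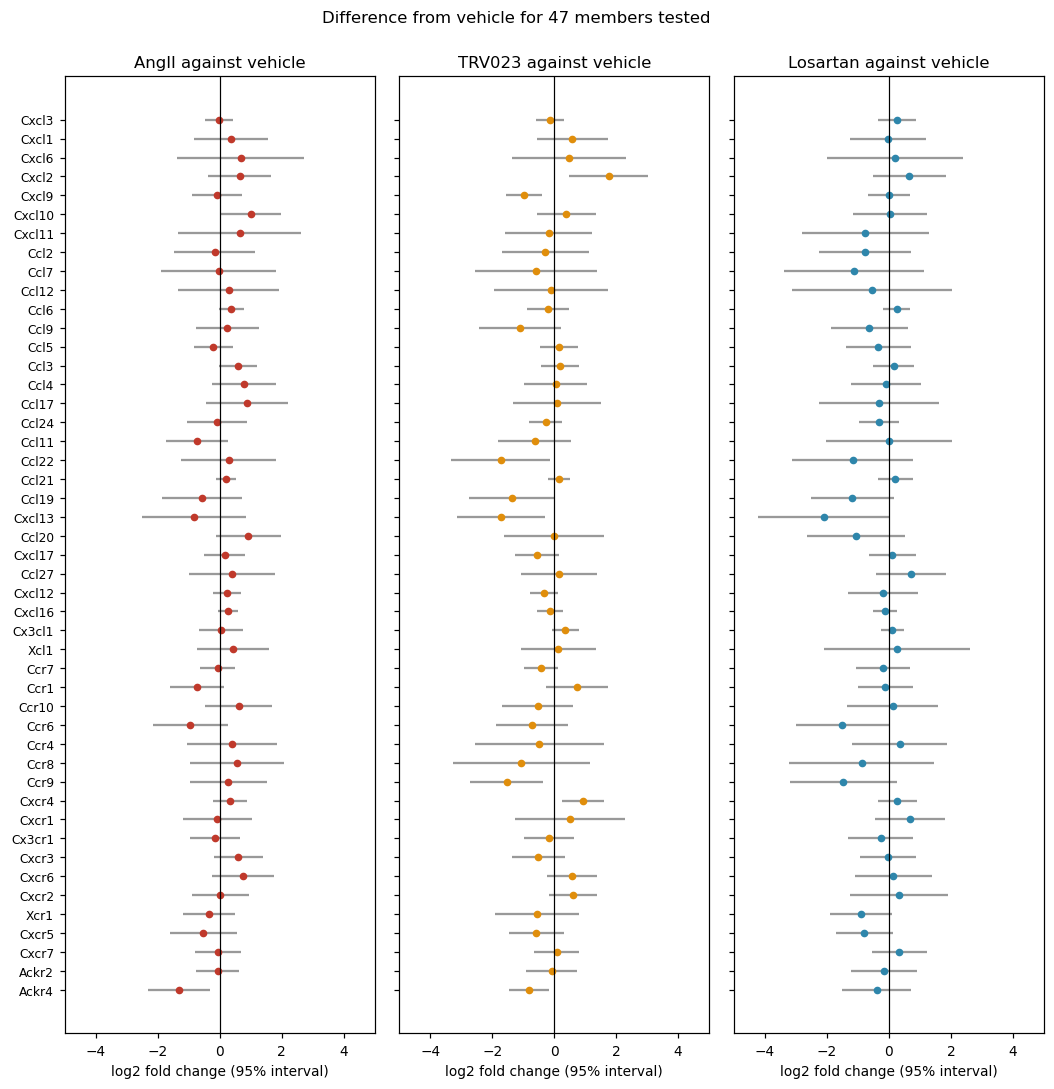
Log2 fold change against vehicle with 95% interval for 47 of the 48 members tested, in 1 panel for AngII, TRV023 and losartan each, ordered by role from top to bottom. Most intervals span 0, and the few that do not (Ackr4 with AngII, Cxcl9, Cxcl2, Cxcr4, Ccr9 and Ackr4 with TRV023 among them) have adjusted p-values in edgeR above 0.05.

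With AngII, whose rats were set against vehicle to ask what full receptor activation does, the members had a median log2 fold change of 0.21, against -0.02 over all genes, and 28 of 48 were above 0. Without Veh_963 the members' median was -0.01. The share of members at an unadjusted p under 0.05 was 2.08% in the higher direction (6.54% of all genes) and 2.08% in the lower (5.39%). On TMM-scaled CPM, groups did not overlap for 3 members that were higher (Cxcl16, Ccl17 and Ccr8, 6.25%, against 10.2% of all genes) and 2 that were lower (Ackr4 and Ccr6, 4.17%, against 8.6%). These shares lie below those of all genes. In FPKM the groups of Cxcl16, Ccl17 and Ccr8 overlapped. Ccr8 rested on 15, 14 and 13 reads in the AngII rats, against 14, 4 and 16 in the vehicle rats. Among cell type markers, 6 of 7 tested gene models of club and ciliated cells were lower with AngII at an unadjusted p under 0.05. Of 10 tested mast cell gene models, 6 were higher at that p. The summed level of the 8 listed airway gene models was 6811 to 14105 FPKM in the AngII rats, against 13144 to 31022 FPKM in the vehicle rats. That of the 11 mast cell gene models was 1098 to 1655 FPKM, against 761 to 1147. No marker of these lists was at 0 in all libraries, and their part in the members' levels was not tested.

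Ackr4, the atypical receptor that takes up Ccl19 and Ccl21, had the smallest p with AngII. Its level was 2.74, 1.47 and 4.63 FPKM in the AngII rats, 5.31, 3.92 and 4.45 in the TRV023 rats and 3.12, 9.78 and 4.43 in the losartan rats, against 7.42, 6.50 and 10.3 FPKM in the vehicle rats. All AngII and all TRV023 rats lay below all vehicle rats, which both comparisons share. The log2 fold change was -1.32 with AngII (SE 0.44, edgeR adjusted p = 0.372) and -0.82 with TRV023 (SE 0.29, edgeR adjusted p = 0.766). Without Veh_963, the vehicle rat with the highest level, it was -1.10 with AngII and -0.60 with TRV023. With AngII it was -1.01 without Ang2_931 and -1.82 without Ang2_933. Lymphatic endothelium is a known site of Ackr4, and the summed level of 6 lymphatic markers, one of which is Ccl21, was 1151 to 1336 FPKM in the AngII rats and 1246 to 1519 in the TRV023 rats, against 1131 to 1348 FPKM in the vehicle rats, so these ranges overlapped. Ccl21 makes up most of that sum. The other 5 markers summed to 61.7 to 78.6 FPKM in the AngII rats and 87.2 to 169 in the TRV023 rats, against 94.6 to 111 FPKM in the vehicle rats, so that the AngII range lay below that of vehicle. With AngII 4 of the 6 markers had a log2 fold change below 0, of which Mmrn1, a protein of endothelium, had the smallest p (-0.77, edgeR adjusted p = 0.337), and no marker was at 0 in all libraries. The part of lymphatic endothelium in the Ackr4 level was not tested. Cxcl10, an interferon-inducible ligand of Cxcr3, had 6.06, 10.6 and 3.52 FPKM in the AngII rats, against 3.26, 4.72 and 3.19 in the vehicle rats, and the groups overlapped. Its log2 fold change of 0.997 (SE 0.44, edgeR adjusted p = 0.417) was 0.47 without Ang2_931. Ccl3, a macrophage ligand of Ccr1, was at 22.1, 21.6 and 16.6 FPKM with AngII, against 19.3, 14.3 and 10.1 with vehicle. Ccl6 was at 357, 315 and 280.4 FPKM with AngII, against 267, 211 and 325 with vehicle, and Ccl20, which attracts Ccr6-bearing cells, at 7.59, 4.96 and 4.20 FPKM, against 3.04, 4.82 and 1.74. Groups overlapped for all 3 of these ligands, with log2 fold changes of 0.59, 0.37 and 0.93 (edgeR adjusted p = 0.424, 0.438 and 0.465). That of Ccl3 was 0.39 without Veh_963 and that of Ccl6 was 0.23 without Veh_924.

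TRV023 was set against vehicle to ask what the biased agonist does. By the study's account it also antagonizes G protein signaling of the receptor, so that the comparison does not isolate β-arrestin signaling. With TRV023 the members had a median log2 fold change of -0.17, against 0.00 over all genes, and 30 of 48 were below 0. The members' median was -0.03 without Veh_924 and -0.31 without Veh_963. The unadjusted p was under 0.05 for 2 members that were higher (4.17%, against 2.61% of all genes) and 5 that were lower (10.4%, against 2.96%). Groups did not overlap for 1 member that was higher (Cxcl2, 2.08%, against 5.05%) and 4 that were lower (Cxcl9, Ccr9, Ackr4 and Ccr7, 8.33%, against 5.17%). No member of either direction passed the adjusted threshold.

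Cxcl9, the interferon-gamma-induced ligand of Cxcr3, had the smallest p of the family. Its level was 3.56, 5.91 and 4.23 FPKM in the TRV023 rats, against 9.17, 8.11 and 9.87 FPKM in the vehicle rats, with a narrow spread in both groups and no overlap. AngII rats had 12.5, 4.24 and 6.84 FPKM and losartan rats 12.8, 7.80 and 5.83. The log2 fold change with TRV023 was -0.99 (SE 0.25, 95% interval -1.57 to -0.41, edgeR adjusted p = 0.578, DESeq2 adjusted p = 0.0636). Its receptor Cxcr3 was at 3.63, 6.25 and 6.64 FPKM with TRV023, against 10.2, 4.52 and 8.84 with vehicle, with overlap. The summed level of the 17 T and NK cell markers was 123 to 179 FPKM in the TRV023 rats, against 151 to 168 in the vehicle rats, 0 of 16 tested had an unadjusted p under 0.05, and no marker was at 0 in all libraries. Of 11 monocyte and macrophage markers tested with TRV023, 10 had a log2 fold change above 0 and 1 below. At an unadjusted p under 0.05, 3 of them were higher and 0 lower (2.61% and 2.96% of all genes). Of 8 dendritic cell markers tested, one of which is Ccl22, 0 were above 0 and 8 below, with 2 lower at that p. The part of any of these cells in the Cxcl9 level was not tested.

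Cxcl2 (MIP-2), a neutrophil attractant, was the member with the largest positive log2 fold change with TRV023. Its level was 13.4, 3.20 and 4.20 FPKM in the TRV023 rats, against 1.95, 2.16 and 2.07 FPKM in the vehicle rats. The groups did not overlap, and Trv_917 stood far above the rest. The log2 fold change was 1.76 (SE 0.56, edgeR adjusted p = 0.704, DESeq2 adjusted p = 0.0972), and 0.83 without Trv_917. AngII rats had 4.55, 2.61 and 1.73 FPKM and losartan rats 1.56, 4.90 and 2.70. Cxcl1, whose promoter holds its kappaB match near the same distance, was at 67.7, 40.4 and 39.9 FPKM with TRV023, against 43.0, 46.7 and 10.1 with vehicle, and Cxcl6 at 9.64, 6.08 and 13.8 FPKM, against 8.67, 12.01 and 0.633, both with overlap. Their receptor Cxcr2 was at 4.80, 3.06 and 3.47 FPKM with TRV023, against 2.66, 3.03 and 1.85 with vehicle, and Cxcr1 at 7.98, 27.8 and 2.74, against 8.49, 3.51 and 14.8. Of 14 neutrophil markers tested with TRV023, 5 were higher and 0 lower at an unadjusted p under 0.05 (2.61% and 2.96% of all genes). With AngII 1 was higher and 0 lower, and with losartan 0 in either direction. The median log2 fold change of the list was 0.93 with TRV023, 0.60 with AngII and 0.72 with losartan, with 11, 13 and 11 of 14 above 0. All 3 comparisons share the vehicle rats. Camp and Ngp, granule proteins, had the smallest p with TRV023, with log2 fold changes of 1.69 and 2.16 (edgeR adjusted p = 0.306 and 0.402). The summed level of the 15 listed markers was 1188 to 1964 FPKM with TRV023, against 608 to 2710 FPKM with vehicle, with none at 0 in all libraries, and the part of neutrophils in the Cxcl2 level was not tested.

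Cxcr4, the receptor of Cxcl12 on leukocytes and progenitor cells, was at 82.5, 110.3 and 57.2 FPKM in the TRV023 rats, against 38.6, 31.3 and 61.5 FPKM in the vehicle rats. The lowest TRV023 rat lay below the highest vehicle rat, Veh_963. Its log2 fold change was 0.92 (SE 0.30, edgeR adjusted p = 0.722), and 1.25 without Veh_963. AngII rats had 55.6, 53.6 and 42.8 FPKM and losartan rats 44.1, 57.1 and 50.9, so that the highest 2 values of the series, 82.5 and 110.3, were both from TRV023 rats. Cxcl12 itself was at 279.6, 222 and 237 FPKM with TRV023, against 260.4, 402 and 274 with vehicle, and Cxcr7 at 81.9, 48.4 and 62.6 FPKM, against 63.1, 84.2 and 35.6. Neither the ligand (log2 fold change -0.34, 95% interval -0.80 to 0.12) nor the atypical receptor (0.08, -0.64 to 0.81) differed from vehicle beyond the interval. Across the 4 groups Cxcr4 had the smallest p of the family (edgeR adjusted p = 0.545).

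Of the 4 lymphoid homing ligands 0 were called with AngII, TRV023 or losartan (0.0133%, 0.00658% and 0% of all genes). Their log2 fold change was below 0 for 3 with TRV023, 3 with losartan and 2 with AngII, and their median was -0.69, -1.12 and -0.19, against 0.00, 0.01 and -0.02 over all genes. Ccl21, the most abundant of them, was above 0 with TRV023 (0.15), losartan (0.20) and AngII (0.20), and Ccl20 had -0.02 with TRV023, -1.06 with losartan and 0.93 with AngII. Cxcl13, the follicular ligand of Cxcr5 on B cells, was at 2.86, 2.11 and 3.93 FPKM with TRV023 and 5.59, 0.751 and 0.615 with losartan, against 2.45, 10.6 and 16.4 FPKM with vehicle. Both comparisons share the vehicle rats, of which Veh_923 lay among the drug rats. The log2 fold change was -1.73 with TRV023 (SE 0.62, edgeR adjusted p = 0.789) and -2.10 with losartan (SE 0.92, edgeR adjusted p = 0.9999), and the losartan value was -0.28 without the rats numbered 96x, which leaves 1 losartan rat that is assumed to vary like the others. With AngII the log2 fold changes were -0.83 for Cxcl13, -0.58 for Ccl19 and -0.52 for Cxcr5. Cxcr5 was at 1.60, 0.999 and 1.32 FPKM with losartan, against 2.11, 2.00 and 2.91 with vehicle, with no overlap (log2 fold change -0.80, edgeR adjusted p = 0.9999, and -0.41 without the rats numbered 96x). Ccl19, the dendritic cell and stromal ligand of Ccr7, was at 7.28, 3.82 and 5.24 FPKM with losartan, against 3.50, 14.1 and 20.1 with vehicle (log2 fold change -1.18, edgeR adjusted p = 0.9999, and -0.33 without the rats numbered 96x). Ccr7 was at 4.65, 7.74 and 6.97 FPKM with TRV023, against 9.32, 8.62 and 8.07 with vehicle, with no overlap (log2 fold change -0.43, 95% interval -0.98 to 0.12). The summed level of the 10 B cell markers was 14.4 to 43.2 FPKM with TRV023 and 19.6 to 53.8 with losartan, against 33.2 to 76.2 FPKM with vehicle. All 9 tested B cell markers had a log2 fold change below 0 with both drugs, 1 (TRV023) and 0 (losartan) of them at an unadjusted p under 0.05, and none was at 0 in all libraries. With AngII the markers went the other way, with 8 of 9 above 0, a median log2 fold change of 0.39 and a summed level of 50.1 to 89.4 FPKM. The 8 listed dendritic cell markers other than Ccl22 summed to 62.8 to 97.2 FPKM with TRV023 and 58.6 to 104 with losartan. The sums were 91.5 to 106 FPKM with AngII and 96.7 to 109 with vehicle. With Ccl22 included, 8, 7 and 5 of 8 tested markers were below 0 with TRV023, losartan and AngII. The part of B cells or dendritic cells in the levels of these ligands and receptors was not tested.

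With losartan, set against vehicle to ask what blocking the receptor does, the members had a median log2 fold change of -0.12, against 0.01 over all genes, and 29 of 48 were below 0. The median was -0.47 without Los_925, the losartan rat outside the 96x series, -0.01 without Los_965 and -0.06 without the rats numbered 96x. At an unadjusted p under 0.05 there were 0 members that were higher (0.686% of all genes) and 1 that was lower (2.08%, against 0.963%). No member was above all vehicle rats in all losartan rats (2.91% of all genes), and 3 members, Ccr6, Cxcr5 and Ccr9, were below (6.25%, against 2.95%). Ccr6, the receptor of Ccl20 on B and Th17 cells, was at 0.894, 0.158 and 0.559 FPKM in the losartan rats, against 1.40, 0.917 and 2.30 FPKM in the vehicle rats. Its log2 fold change of -1.50 (SE 0.65, edgeR adjusted p = 0.9999) was -0.43 without the rats numbered 96x. Ccr9, the receptor of the gut and thymus ligand Ccl25, rested on 17, 2 and 3 reads in the losartan rats and 6, 10 and 4 in the TRV023 rats, against 20, 19 and 24 reads in the vehicle rats. Xcr1, which marks cross-presenting dendritic cells, was at 2.43, 1.08 and 2.55 FPKM with losartan, against 4.11, 1.92 and 5.54 with vehicle, and the groups overlapped (log2 fold change -0.90, edgeR adjusted p = 0.9999, and -0.37 without the rats numbered 96x).

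**Figure D4:**
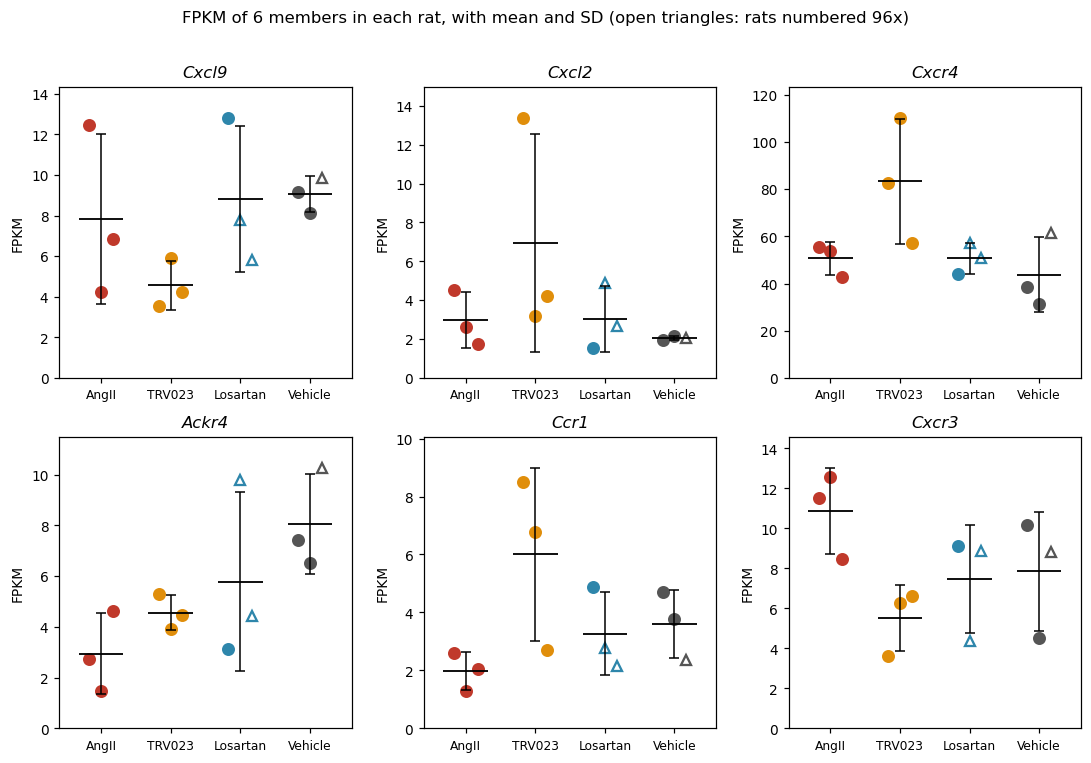
FPKM of 6 members in each rat by group, with the mean (line) and SD (bar) of 3 rats and open triangles for the rats numbered 96x. Cxcl9 and Ackr4 are lower in all 3 TRV023 rats than in all 3 vehicle rats, Cxcl2 is higher in all 3 with 1 rat at 13.4 FPKM, and Ccr1 and Cxcr3 differ in opposite directions between TRV023 and AngII.

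The biased agonist and AngII act on the same receptor, so they were also compared directly. They were given at different doses, so the comparison is of these groups as dosed. The members had a median log2 fold change of -0.28 for TRV023 against AngII, with 36 of 48 below 0, against 0.01 over all genes, and of -0.43 without Ang2_933. At an unadjusted p under 0.05, 1 member was higher with TRV023 (2.08%, against 5.63% of all genes) and 8 were lower (16.7%, against 5.43%). Ccr1, a receptor of monocytes and neutrophils for Ccl3, Ccl5 and the rodent ligands Ccl6 and Ccl9, was the one that was higher. It stood at 8.51, 6.79 and 2.71 FPKM in the TRV023 rats, against 2.60, 1.30 and 2.04 FPKM in the AngII rats, with no overlap. Its log2 fold change was 1.47 (SE 0.45, edgeR adjusted p = 0.275, DESeq2 adjusted p = 0.0593). Vehicle rats had 4.70, 3.76 and 2.35 FPKM and overlapped with both groups. Cxcr3 was at 3.63, 6.25 and 6.64 FPKM with TRV023, against 11.5, 12.6 and 8.44 with AngII, with no overlap and a log2 fold change of -1.12 (SE 0.37, edgeR adjusted p = 0.296). Cxcl16 (-0.41), Cxcl17 (-0.72) and Ccl9 (-1.36) followed by p, and the other lower members were Ccl22, Cxcl9, Ccr9 and Ccl6. Ccl9 was at 17.2, 42.4 and 13.1 FPKM with TRV023, against 66.0, 53.6 and 48.5 with AngII, and Cxcl17 at 100.3, 128 and 89.5 FPKM, against 188, 146 and 142. Both ligands had all TRV023 rats below all AngII rats. The share of all genes whose TRV023 and AngII groups do not overlap was not counted, so these cases have no background beside them. No p of these comparisons passed the adjusted threshold.

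For Cx3cl1 and its receptor Cx3cr1, and for Ccl5 and Cxcr6, groups overlapped in every comparison with vehicle. Cx3cl1 (fractalkine), the endothelial ligand of patrolling monocytes, was at 17.8, 17.3 and 18.2 FPKM in the losartan rats, against 20.5, 15.7 and 15.0 in the vehicle rats. Its 95% interval with losartan, -0.25 to 0.48 on the log2 scale, was among the narrower ones of the family. AngII rats had 24.8, 14.9 and 8.63 FPKM (95% interval -0.67 to 0.75) and TRV023 rats 26.2, 18.3 and 20.7 (-0.07 to 0.79). Its receptor Cx3cr1 was at 16.1, 5.44 and 5.61 FPKM with losartan, against 11.3, 15.4 and 6.35 with vehicle. Ccl5 (RANTES), a ligand made by T cells, was at 23.3, 25.4 and 30.2 FPKM with AngII, against 21.5, 36.3 and 41.8 with vehicle. Cxcr6 was at 5.81, 2.63 and 2.69 FPKM with AngII, against 3.08, 2.06 and 2.03 with vehicle.

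Genes that work with chemokines but lie outside the rule also had 0 calls. Of 23 such genes (signaling partners, related ligands and receptors), 20 were tested with AngII, 19 with TRV023 and 20 with losartan. Over all genes 0.0133%, 0.00658% and 0% were called, so that 0 calls in a list of this size says little about its genes. At an unadjusted p under 0.05, 3 of the listed genes were higher and 1 lower with AngII (6.54% and 5.39% of all genes). With TRV023 2 were higher and 1 lower (2.61% and 2.96%), and with losartan 0 in either direction (0.686% and 0.963%). Pf4, a platelet chemokine, had the smallest p with both agonists, with log2 fold changes of 0.83 with AngII and 0.85 with TRV023 (edgeR adjusted p = 0.336 and 0.543), and Rgs1, which ends G protein signaling of chemokine receptors in lymphocytes, had 1.52 with TRV023 (edgeR adjusted p = 0.578). Of 23 inducers of chemokine genes and adhesion molecules, 21 were tested with each drug and 0 were called, beside the same shares of all genes. The median log2 fold changes of this list were 0.01, 0.09 and 0.05 with AngII, TRV023 and losartan, against -0.02, 0.00 and 0.01 over all genes. Tnf, an inducer of many of these ligands through NF-kappaB, had a log2 fold change of -1.38 with TRV023 (edgeR adjusted p = 0.774), and Vcam1, which binds rolling leukocytes, of -0.37 with AngII and -0.66 with losartan (edgeR adjusted p = 0.372 and 0.9999). Il1a, a cytokine that induces chemokines, had the smallest p of the list with losartan, with a log2 fold change of 0.87 (edgeR adjusted p = 0.9999).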

How the data were processed

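The authors had total lung RNA sequenced by a company and aligned to the rat genome. The deposited tables, 1 per drug, hold read counts, FPKM and a signal that equals the count divided by 1 factor per library, and the authors' fold changes and p-values, which were not used. For the aligner, counting tool and genome build nothing is stated in the sources used here. Scaffold names begin with AABR06. Each drug was compared with vehicle on the deposited counts in edgeR 4.0.16 (R 4.3.3) with filterByExpr, TMM and the quasi-likelihood test (glmQLFit, glmQLFTest), and all 12 libraries in 1 fit for the other comparisons, with genes missing from a table taken as 0. P-values were adjusted by Benjamini-Hochberg over all genes. Members whose groups do not overlap were counted on TMM-scaled CPM, and for the SD within groups 0.5 was added before log2. Alternatives were DESeq2 1.42.0, limma-voom and limma 3.58.1 on log2(FPKM + 1) and log2(FPKM + 0.1), RLE, library totals, other filters, a threshold of 0.1, all 4 groups in 1 fit, gene length trend removed (span 0.3), genes of all 3 tables only, each library left out, and rats numbered 96x left out. The statistics were tested on simulated data. Of 50 genes changed 2-fold, edgeR recovered 19, 11 and 12 in the comparisons of AngII, TRV023 and losartan. DESeq2 recovered 22, 20 and 23. Among 14859, 14993 and 14956 unchanged genes, edgeR made 7, 6 and 8 false calls and DESeq2 made 46, 36 and 52. DESeq2 thus made more false calls than edgeR at the same threshold, which limits its adjusted p-values here. The members described in full were the 5 ligands and 5 receptors with the highest mean FPKM, the 5 with the smallest p in each comparison with vehicle and the ligand and receptor pairs; Ccl7, Ccl12, Cxcl6, Ccl11, Ccl17, Ccl22, Ccr1 and Ccl9 were chosen after their values were seen. The values of 1 further member are not reported here, though it is part of all counts. The members and lists were chosen with earlier results of these data known. For 3 against 3 rats an exact two-sided permutation test cannot go below p = 0.1. Replicates are separate rats.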

Additional observations from a re-analysis of the deposited data

How the results depend on the processing

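No member was called in any of the 118 alternative settings summed over the comparisons, where the lowest adjusted p of a member was 0.0593 (DESeq2, Ccr1, TRV023 against AngII). The number of members whose AngII and vehicle groups did not overlap was 3 with deposited FPKM (Ackr4, Ccr6 and Ccl11) and 5 with TMM-scaled CPM, and the cause was not tested. The direction of single members was followed only for the 5 with the smallest p in each comparison with vehicle and between TRV023 and AngII. All 331 alternative log2 fold changes of these kept their direction. They were picked by p from these same data, so that a kept direction is no separate support. The median log2 fold change of the members moved by more than 1 SD of the vehicle libraries in 5 settings. Of these, 2 left out Veh_963 (-0.01 with AngII) and 3 Los_925 (-0.47 with losartan, 0.76 for AngII against losartan and 0.51 for TRV023 against losartan). The 2 without Veh_963 are 1 fit under 2 names, because Veh_963 is the only rat numbered 96x among the AngII and vehicle rats. The same holds for TRV023 against vehicle, and the counts of 118 and 331 include both names. No paired analysis was possible because the groups share no replicate numbers. With 3 rats a group, the median SE of the members was 0.44 to 0.49, against 0.21 to 0.25 over all genes.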
